A study of Homo sapiens with 6 samples.

Results

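The genes described here are 10 transcripts that the RAS-RAF-MEK-ERK kinase cascade is known to switch on, many of which in turn restrain it: DUSP4, DUSP5, DUSP6, SPRY2, SPRY4, SPRED1, ETV4, ETV5, PHLDA1 and FOSL1. They were taken by symbol from the annotation of the array, keeping the brightest probe set per gene. All 10 were found, each with 1 probe set, among 17687 genes measured. The cells were 4175, a lung-seeking variant of MDA-MB-231, a human breast cancer line classed as triple-negative. A control siRNA had been given to the 4175 cells of the 3 arrays called sicontrol. Those of the 3 arrays called siPGC1alpha had received an siRNA directed at PGC-1alpha, the coactivator encoded by PPARGC1A. Each siRNA was added 24 hours after plating and left for 48 hours, and 10 ng of RNA per sample was labelled for a single-colour array. No further allele or drug is named for either group, and all 6 samples are of the same cell line, so they stand for 1 genetic background.

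In outline, growth factor receptors activate RAS, which recruits RAF, and RAF starts a relay through MEK to the kinase ERK. ERK then induces transcription factors such as the ETS proteins ETV4 and ETV5 and the AP-1 protein FOSL1. It also induces its own brakes. Dual-specificity phosphatases (DUSPs) remove the activating phosphates from ERK, and Sprouty and SPRED proteins interfere upstream, near RAS and RAF. Transcript levels of these genes are therefore widely read as a measure of ERK activity, and MDA-MB-231 is a line known for a constitutively active cascade.

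The regulatory sequence of 5 of the 10 genes (DUSP6, SPRY2, SPRY4, SPRED1 and PHLDA1) was at hand, as RefSeq windows of build GRCh38.p14 that run from 250 bases before to 50 bases after a transcription start. The windows are shown because ETS factors, 2 of which are themselves among the 10 genes, can bind the letters CCGGAA, called the ETS core here. This was the only form searched, so a stretch without capitals may still hold other, shorter forms of an ETS site. The stretch from 150 to 51 bases before the start follows for each gene, 5′ to 3′ on the gene's strand, with any ETS core on either strand in capitals.
DUSP6, chr12:89352552-89352651, minus strand: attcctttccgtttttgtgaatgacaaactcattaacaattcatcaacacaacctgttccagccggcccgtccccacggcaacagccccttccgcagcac
SPRY2, chr13:80341177-80341276, minus strand: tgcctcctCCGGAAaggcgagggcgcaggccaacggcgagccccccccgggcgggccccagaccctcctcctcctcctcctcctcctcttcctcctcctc
SPRY4, chr5:142324298-142324397, minus strand: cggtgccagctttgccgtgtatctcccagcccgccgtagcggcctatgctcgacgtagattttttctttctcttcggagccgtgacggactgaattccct
SPRED1, chr15:38252686-38252785, plus strand: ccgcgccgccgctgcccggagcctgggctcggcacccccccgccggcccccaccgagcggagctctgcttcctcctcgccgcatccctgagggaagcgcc
PHLDA1, chr12:76031827-76031926, minus strand: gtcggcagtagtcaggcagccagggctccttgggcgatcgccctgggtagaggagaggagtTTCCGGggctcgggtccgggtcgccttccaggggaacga

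The ETS core stood 142 bases before the start in SPRY2 and, on the opposite strand, 89 bases before it in PHLDA1. SPRY2 has 3 annotated windows, and the core lay in the outermost one only. It was thus present in 2 of the 7 windows of these 5 genes, and in 17.2% of all 35116 windows in the RefSeq table. The AP-1 site TGANTCA and the cyclic AMP response element TGACGTCA, searched on both strands, were found in 0 of the 7 windows, against 7.71% and 1.85% of all windows. The GC box GGGCGG was found in 5 of the 7, against 45% of all windows, and in these 5 genes no GC box overlapped an ETS core. GC content of the windows whose stretches are printed was 58.3% in DUSP6, 65% in SPRY4, 69.3% in PHLDA1, 71% in SPRY2 and 76.3% in SPRED1, against a median of 58.7% over all windows. These matches describe the letters in these windows and are not evidence of binding.

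Before the values, 1 array has to be set apart. On siPGC1alpha replicate 1 the standard deviation over genes was 1.66, against 2.06 to 2.09 on the other 5 arrays. Its correlation with them across genes, which are not independent replicates, was 0.585 to 0.604, against 0.995 to 0.996 among the other 5. The median of 63 ERCC spike-in probe sets was 6.50 on it and 5.04 to 5.11 on the others. PPARGC1A itself read 6.45, 6.49 and 6.49 on the control arrays and 7.95, 6.52 and 6.47 on siPGC1alpha replicates 1, 2 and 3, so a knockdown was not visible at the transcript level, and the group is named here by its label only. The mesenchymal markers VIM, CD44, AXL, MSN, CAV1 and ZEB1 had control means of 10.11 to 12.80. Among the 612 negative control probe sets the median was 3.34 and the 95th percentile 5.36. Of the 6 epithelial markers, PGR averaged 2.76, CDH1 3.97, ESRP1 4.23 and GRHL2 4.90 in the controls, under that percentile, while ESR1 averaged 5.99 and EPCAM 7.43, above it. Leukocyte and endothelial markers averaged 4.49 (PTPRC) to 7.38 (CD14), and no detection call was used to judge whether these probe sets were above background. All values for the 10 genes are therefore given with replicate 1 apart. Whether the replicates of a group were separate cultures is not stated, and the p-values therefore reflect sample-to-sample spread that may be technical.

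Without replicate 1, the ERK phosphatases were at nearly the same level under both siRNAs. DUSP4 encodes a nuclear phosphatase of ERK and related kinases. It read 10.85, 11.00 and 10.98 on the control arrays and 10.87 and 10.83 on siPGC1alpha replicates 2 and 3 (log2 signal), so the groups overlapped. The difference, siPGC1alpha minus control, was -0.09 on the log2 scale (SE 0.081, 95% interval -0.28 to 0.10, limma adjusted p = 0.9998), a ratio of 0.939. DUSP5, a nuclear phosphatase selective for ERK, read 10.04, 10.07 and 10.02 in the controls and 10.02 and 10.16 in siPGC1alpha replicates 2 and 3. One of these siPGC1alpha arrays lay inside the narrow control range and the other above it. Its difference was 0.04 (SE 0.078, interval -0.14 to 0.23). DUSP6, the cytoplasmic ERK phosphatase and the member of this family most often used as an ERK readout, read 9.82, 9.56 and 9.70 in the controls. Its siPGC1alpha values of 9.69 and 9.81 both lay inside that range. The DUSP6 difference was 0.06 (SE 0.099, interval -0.18 to 0.29), with the largest control SD of the 10 genes, 0.13 (n = 3).

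On siPGC1alpha replicate 1 all 3 phosphatases lay below every other array. DUSP4 read 9.52, DUSP5 9.52 and DUSP6 7.78, which is -1.42, -0.53 and -1.91 from the control means. Over all 6 arrays the differences were -0.53 (SE 0.41) for DUSP4, -0.15 (SE 0.26) for DUSP5 and -0.60 (SE 0.57) for DUSP6, and none passed (limma adjusted p = 0.663 to 0.713). In this bulk RNA, fewer cells with a transcript and less of it per cell cannot be told apart. Replicate 1 also stood apart from the other arrays over all genes (correlation 0.585 to 0.604). The part of that array-wide departure in these low values was not tested.

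The Sprouty and SPRED genes included SPRED1, which had the largest difference of the 10 in the comparison without replicate 1. SPRED1 encodes a membrane-associated inhibitor that brings neurofibromin to RAS. It read 9.31, 9.18 and 9.09 on the control arrays and 9.02 and 9.05 on siPGC1alpha replicates 2 and 3. Both siPGC1alpha values were below the lowest control, although the 3 controls themselves spanned 0.22. The difference was -0.16 (SE 0.089, interval -0.37 to 0.05, unadjusted p = 0.122 and adjusted p = 0.9998 by limma), a ratio of 0.896. On replicate 1 SPRED1 read 9.89, above all other arrays and 0.70 over the control mean, so that the 6-array difference had the opposite sign, 0.13 (SE 0.31).

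SPRY2 encodes an inhibitor of receptor tyrosine kinase signalling. Its signals were 6.85, 6.77 and 6.78 in the controls and 6.84 and 6.89 in siPGC1alpha replicates 2 and 3. The groups overlapped by a single control array, sicontrol 1, and the difference was 0.07 (SE 0.073, interval -0.11 to 0.24). SPRY2 was also the gene least displaced on replicate 1, at 6.92 or 0.12 above the control mean, and its 6-array difference was 0.08 (SE 0.20). SPRY4, a related inhibitor acting on RAS activation, read 10.10, 10.04 and 10.21 in the controls and 10.19 and 10.18 in siPGC1alpha replicates 2 and 3. These values lay inside the control range, with a difference of 0.07 (SE 0.081, interval -0.12 to 0.26). Its replicate 1 value of 7.48 was -2.63 from the control mean, and the 6-array difference was -0.83 (SE 0.76, limma adjusted p = 0.663). The 2 Sprouty genes thus parted on that array and had similar small differences on the others. Their control means also differed, 6.80 for SPRY2 and 10.12 for SPRY4, and the part of signal level was not tested. The SPRY2 mean lay among those of the leukocyte and endothelial markers, 4.49 to 7.38.

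The transcription factors of the output arm were equally close between groups. ETV4, an ETS factor of the PEA3 subfamily, read 9.14, 9.21 and 9.21 in the controls and 9.28 and 9.23 in siPGC1alpha replicates 2 and 3. Both siPGC1alpha values exceeded the highest control, by less than the control SD for replicate 3 and by more for replicate 2 (control SD 0.040, n = 3). The difference was 0.07 (SE 0.073, interval -0.11 to 0.24). ETV5, its close relative in the PEA3 subfamily, read 10.51, 10.26 and 10.40 in the controls against 10.39 and 10.45, inside the control range. Its difference was 0.03 (SE 0.093, interval -0.19 to 0.25). On replicate 1 ETV4 read 8.62 and ETV5 7.22, both below all other arrays, at -0.56 and -3.17 from the control means. Over the 6 arrays ETV4 differed by -0.14 (SE 0.26) and ETV5 by -1.04 (SE 0.88).

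FOSL1 encodes FRA-1, an AP-1 subunit known to be abundant in mesenchymal breast cancer cells. It read 12.37, 12.49 and 12.47 on the control arrays and 12.49 and 12.43 on siPGC1alpha replicates 2 and 3. The siPGC1alpha values lay between the lowest and the highest control, and the difference was 0.02 (SE 0.077, interval -0.17 to 0.20), a ratio of 1.01 and the smallest difference in size among the 10. On replicate 1 FOSL1 read 7.51, which is -4.93 from the control mean and the largest displacement of the 10. Only 0.905% of all genes were displaced further down. That array gave FOSL1 a 6-array difference of -1.63 with an SE of 1.35 (interval -4.91 to 1.64, limma adjusted p = 0.663). PHLDA1, a pleckstrin homology-like protein induced downstream of ERK, read 11.50, 11.64 and 11.59 in the controls and 11.56 and 11.54 in siPGC1alpha replicates 2 and 3. Both of the latter were within the control range, with a difference of -0.03 (SE 0.078, interval -0.22 to 0.15). Replicate 1 read 10.03 for PHLDA1, -1.55 from the control mean, and the 6-array difference was -0.54 (SE 0.46).

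**Figure D1:**
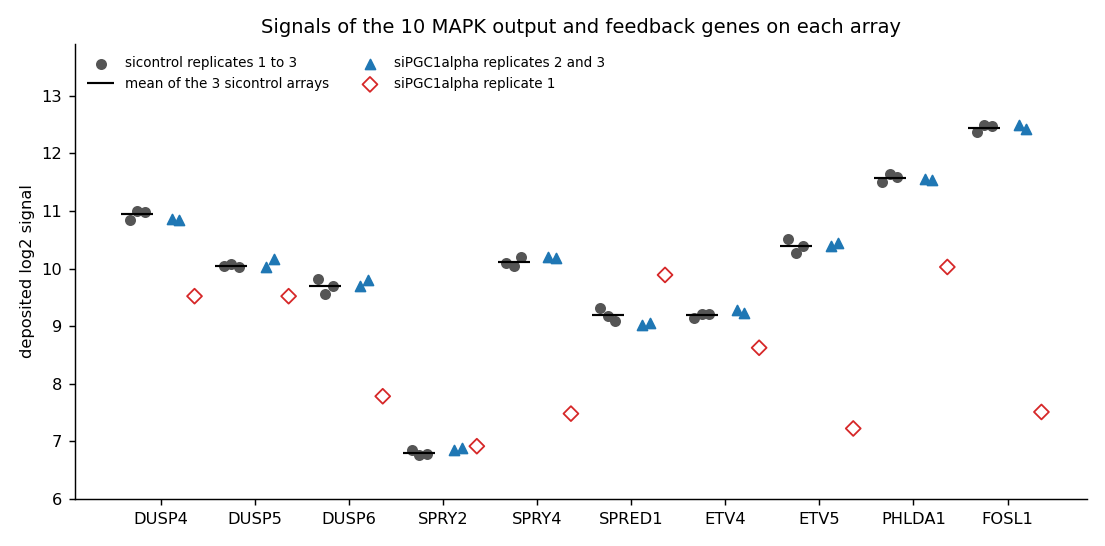
Deposited log2 signal (vertical axis) of each of the 10 genes on every array: grey circles are the 3 sicontrol arrays with their mean as a bar, blue triangles siPGC1alpha replicates 2 and 3, and open red diamonds siPGC1alpha replicate 1. The triangles lie within 0.16 of the control mean for each gene on average, both below the circles for SPRED1 and both above them for ETV4, while the diamond is lower for 8 genes and higher for SPRY2 and SPRED1.

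As a set, the 10 genes differed little between siPGC1alpha replicates 2 and 3 and the controls. Their differences ran from -0.16 (SPRED1) to 0.07 (SPRY4) with a median of 0.04, 7 above and 3 below 0, where the median of all 17687 genes was 0.0080. Of the 10 genes, 0 passed limma at an adjusted p under 0.05, beside 0% of all genes (0 of 17687). At an unadjusted p under 0.05 it was also 0 of 10, beside 4.44% of all genes (786). Groups did not overlap for 2 of the 10, beside 19.7% of all genes, a share near the background. SPRED1 lay below (8.42% of all genes did so) and ETV4 above (11.3%). All 10 had a 95% interval that lay inside a 1.5-fold difference in either direction, as did 95.2% of all genes. The lowest bound among them was a ratio of 0.773, for SPRED1, and the highest was 1.22, for DUSP6. Differences smaller than these bounds were not resolved by this number of arrays.

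**Figure D2:**
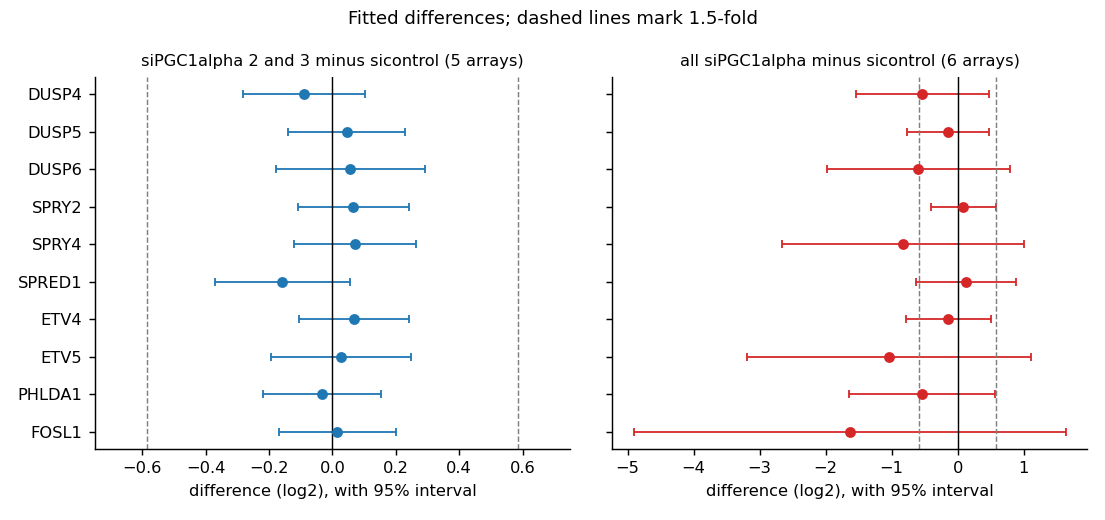
Fitted difference between siPGC1alpha and sicontrol on the log2 scale (horizontal axis) with its 95% interval for each gene, without siPGC1alpha replicate 1 on the left and over all 6 arrays on the right, on different scales. Dashed lines mark a 1.5-fold difference: all 10 intervals on the left lie between them, and the right-hand intervals reach from -4.91 to 1.64 for FOSL1.

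Variation among the arrays other than siPGC1alpha replicate 1 was small for these genes and took different forms. The median control SD of the 10 genes was 0.078, against 0.099 over all genes. The median range over the 5 arrays, of both groups together, was 0.15 against 0.26. Control means of the 10 genes were 6.80 to 12.44, where the median over genes was 7.28 to 7.29 on the control arrays. The part of signal level in this contrast was not tested. DUSP6 and ETV5 shared an order among the controls, with sicontrol 1 highest and sicontrol 2 lowest, and SPRY2 followed the same order. DUSP4, ETV4, PHLDA1 and FOSL1 had the reverse, with sicontrol 1 lowest and sicontrol 2 highest. SPRED1 was highest and DUSP5 second highest on sicontrol 1, and SPRY4 was highest on sicontrol 3. The mean of the 10 genes was 10.05, 10.02 and 10.04 on the control arrays and 10.03 and 10.06 on siPGC1alpha replicates 2 and 3. On replicate 1 it was 8.45.

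On replicate 1 the 10 genes were spread widely relative to the controls, from FOSL1 at -4.93 to SPRED1 at 0.70. Their median displacement was -1.49, and 8 of the 10 were below the lowest control, beside 36.8% of all genes. The other 2 were above every control array, beside 60% of all genes. A displacement of more than 1 log2 unit downwards was found for 6 of the 10, beside 25.3% of all genes. Over all genes the median displacement was 0.61 and the 10th and 90th percentiles were -2.60 and 1.66. On the same array the mesenchymal markers had a median displacement of -1.85 (5 of 6 lower), the leukocyte and endothelial markers had one of 1.09 (6 of 6 higher) and the epithelial markers one of 1.34 (5 of 6 higher). Control means of the 10 genes ran from 6.80 to 12.44, where the median over genes was 7.28 to 7.29 on the control arrays. The part of such markers, of signal level, of the ERCC shift and of the narrower spread in the displacement of the 10 genes was not tested. These displacements of 1 array are given as values and were not tested.

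**Figure D3:**
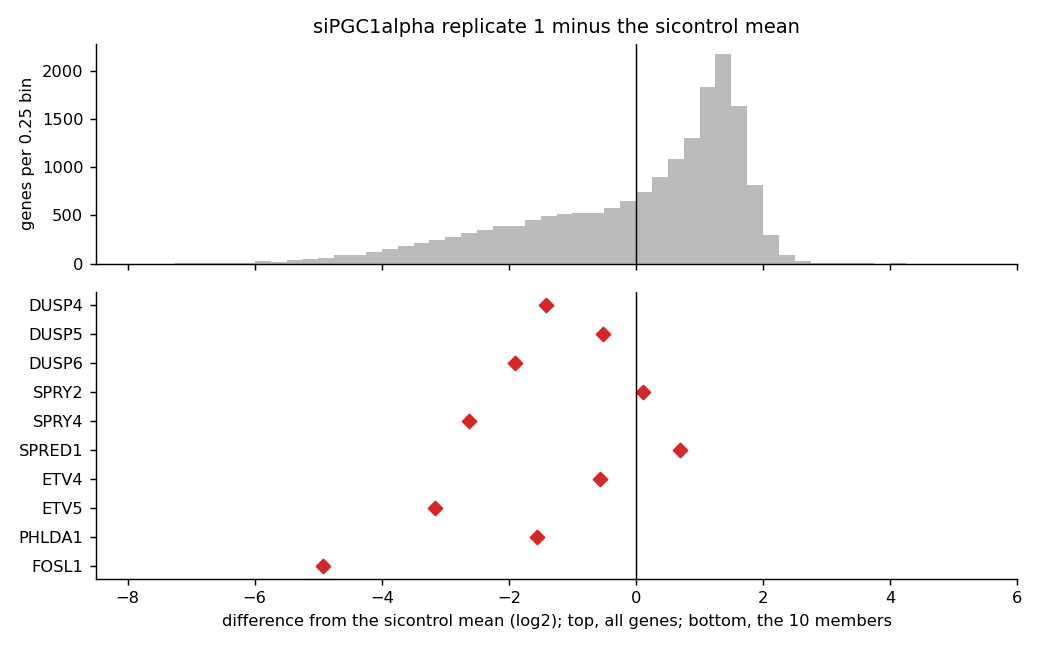
Signal on siPGC1alpha replicate 1 minus the mean of the 3 sicontrol arrays (horizontal axis, log2), as a histogram of all 17687 genes above and as 1 diamond for each of the 10 genes below. All genes have a median of 0.61 with a long tail to the left, and the 10 genes range from -4.93 for FOSL1 to 0.70 for SPRED1.

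Over all 6 arrays, 0 of the 10 genes passed limma at an adjusted p under 0.05 (adjusted p = 0.663 to 0.787), beside 0% of all genes. At an unadjusted p under 0.05 it was 0 of 10, beside 0.017% of all genes (3). The groups overlapped for all 10, where they did not for 7.28% of all genes. When limma weighted the arrays by their estimated quality, 0 of the 10 passed (lowest adjusted p = 0.138, for SPRED1 at -0.15), beside 9.27% of all genes, in a weight estimation that stopped before convergence. The median difference of the 10 was -0.54, against 0.19 over all genes, and the SEs were 0.20 to 1.35 with replicate 1 and 0.073 to 0.099 without it. For DUSP5, DUSP6, SPRY4, SPRED1, ETV4, ETV5 and FOSL1 the sign of the difference changed when replicate 1 was left out.

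The kinases and adaptors that carry the signal to these genes were likewise close between siPGC1alpha replicates 2 and 3 and the controls. Of a list of 17 core genes of the cascade, 12 were analysed here, with a median difference of 0.02 and 0 passing in either direction over all genes. MAP2K1 and MAP2K2, which encode the kinases MEK1 and MEK2, differed by 0.13 (SE 0.091) and 0.12 (SE 0.071). MAPK3, encoding ERK1, differed by 0.03 (SE 0.095), and ARAF, a RAF kinase, by 0.07 (SE 0.069). The adaptor GRB2 differed by 0.07 (SE 0.075) and SOS1, an exchange factor that loads RAS with GTP, by -0.12 (SE 0.072). NF1, the neurofibromin that SPRED1 recruits, differed by -0.0094 (SE 0.095). On replicate 1 the 12 genes had a median displacement of -0.78, ranging from -3.54 for the phosphatase PTPN11 to 1.49 for NF1.

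Relatives of the 10 genes also had 0 passing without replicate 1. All 17 listed were measured, with a median difference of 0.04, 12 above and 5 below 0, from FOSB at -0.22 (SE 0.11, groups not overlapping) to DUSP16 at 0.21 (SE 0.13). This range is wider than that of the 10 genes, and groups did not overlap for 4 of the 17, beside 19.7% of all genes. DUSP1, an inducible phosphatase of several MAP kinases, differed by 0.04 (SE 0.092), SPRY1 by 0.0030 (SE 0.085) and SPRED2 by 0.10 (SE 0.086). The third PEA3 factor, ETV1, differed by 0.03 (SE 0.084), PHLDA2 by 0.08 (SE 0.078), and the AP-1 genes FOS and FOSL2 by 0.06 (SE 0.083) and 0.14 (SE 0.074). On replicate 1 the relatives had a median displacement of 0.91, with 12 higher and 5 lower, where the 10 genes had -1.49. Control means ran from 4.40 to 10.31 in the relatives and from 6.80 to 12.44 in the 10 genes. The part of signal level in this contrast was not tested. SPRY1 at -3.16 (control mean 9.22) and ETV1 at -2.98 (control mean 9.66) were displaced downwards like SPRY4 and ETV5. FOS at 1.24 (control mean 7.42) was displaced upwards, unlike FOSL1 (control mean 12.44).

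Of 18 further genes known to respond to ERK, 16 were analysed here, with a median difference of 0.03 and 0 passing. EGR1, an immediate early transcription factor, differed by -0.01 (SE 0.089), the cell cycle gene CCND1 by 0.04 (SE 0.073) and MYC by 0.08 (SE 0.074). The receptor kinase EPHA2 differed by -0.04 (SE 0.070) and the EGF receptor ligand EREG by 0.02 (SE 0.070). On replicate 1 these 16 genes had a median displacement of -2.12, with 12 lower and 4 higher. The range went from -5.81 for ERRFI1, a feedback inhibitor of the EGF receptor, to 1.43 for EGR3.

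**Figure D4:**
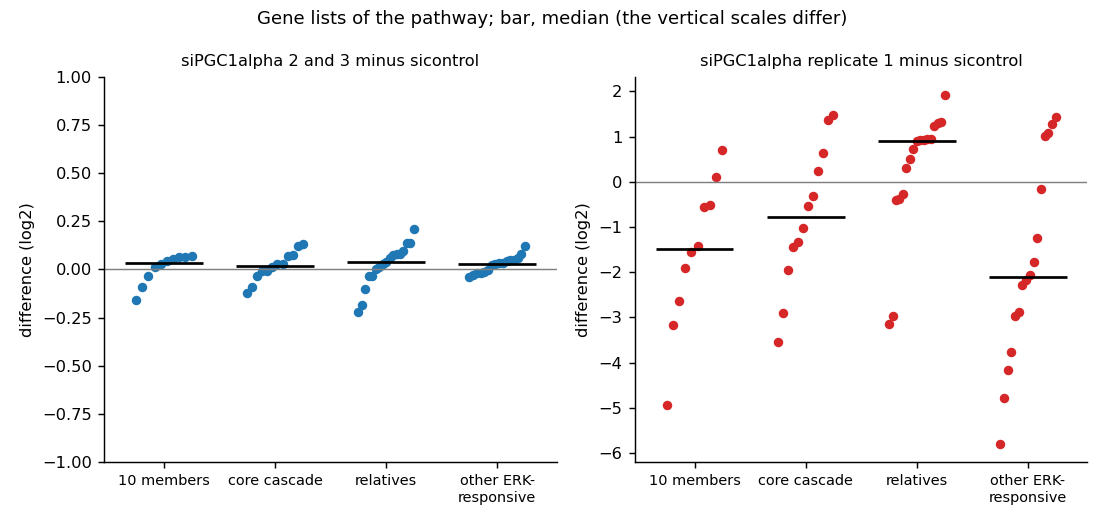
Difference from sicontrol (vertical axis, log2) for each gene of the 4 lists, with the list median as a bar, for siPGC1alpha replicates 2 and 3 on the left and for replicate 1 on the right, on different scales. Medians on the left lie between 0.02 and 0.04, and on the right at -1.49, -0.78, 0.91 and -2.12.

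The genes whose profile was most like the mean of the 10 genes depended on whether replicate 1 was counted. Over 6 arrays they were RPS29, BAG6 and RHOA, each with a Pearson r above 0.95, a value that 5272 of 17677 other genes also exceeded. Over the 5 other arrays they were TOP3B (r = 0.999), CCDC171 (r = 0.997) and CIBAR1 (r = 0.996), and 139 genes exceeded 0.95. These are descriptions over so few arrays that neither set is named for more than likeness.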

How the data were processed

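The authors deposited a table of array signals with 1 column per sample, read here as log2 values from their range, since no label names the scale. The sources used here do not give how the signals were background-corrected, summarised and normalized. A second table has 6 columns that no sample label names, which were left out. Of 24320 probe sets, 17709 had 1 gene symbol in the platform annotation, and 20 genes with several probe sets kept the one with the highest mean over the 6 arrays, leaving 17687 genes. Groups and replicate numbers came from the sample titles. siPGC1alpha was compared with sicontrol in limma 3.58.1 (R 4.3.3; lmFit and eBayes, no covariates, no filter on dim genes, Benjamini-Hochberg adjustment over all genes, threshold 0.05), once over 6 arrays and once without siPGC1alpha replicate 1. Precision is limited by the number of arrays. All 10 genes averaged above the 95th percentile of 612 negative control probe sets. Levels of different probe sets were not ranked. The 10 genes, the lists and the decision to show replicate 1 apart were chosen with earlier results of these data known. All 10 genes, PPARGC1A, fixed genes of each list where analysed here, and the 3 genes nearest in profile are named, and list genes at the ends of a range were named after their values were seen, as were MAP2K2, ARAF, GRB2, SOS1 and NF1. Promoter windows are RefSeq's, build GRCh38.p14, and for the 10 genes those on chromosome 8 (DUSP4) were left out.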

Additional observations from a re-analysis of the deposited data

How the results depend on the processing

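The alternatives were 2 filters on dim genes, averaged probe sets, quantile normalization, median centring, trended robust eBayes, a block for the replicate number, a threshold of 0.1, array weights and each array left out in turn. None of them called any of the 10 genes by limma. The count over all genes was 0 in each, except for array weights over 6 arrays, with 1639 genes (9.27% of all genes), in a weight estimation that stopped before convergence. At an unadjusted p under 0.05 the other alternatives gave 0 to 30 genes with replicate 1 and 548 to 1334 without it. With array weights over 6 arrays DUSP6 differed by 0.010, SPRY4 by 0.069, SPRED1 by -0.15, ETV4 by 0.085, ETV5 by 0.0087 and FOSL1 by 0.032, signs opposite to the unweighted values. Quantile normalization over 6 arrays turned DUSP5 to 0.061, moved SPRED1 to 0.35, ETV4 to -0.023, SPRY2 to 0.046, PHLDA1 to -0.28 and DUSP4 to -0.31, and gave list medians of -0.30 (the 10 genes), -0.044 (core cascade), 0.39 (relatives) and -0.55 (other ERK-responsive genes), and the cause was not tested. With 1 array left out of 6, ranges were -0.27 to 0.044 for DUSP5, -0.96 to 0.057 for DUSP6, -1.28 to 0.071 for SPRY4, -0.16 to 0.28 for SPRED1, -0.26 to 0.067 for ETV4, -1.58 to 0.027 for ETV5 and -2.47 to 0.015 for FOSL1, the end of opposite sign in each being the value without siPGC1alpha replicate 1. With 1 more array left out of 5, ranges were -0.024 to 0.11 for DUSP5, -0.011 to 0.12 for DUSP6, -0.036 to 0.086 for ETV5 and -0.021 to 0.043 for FOSL1. Among these, both ends for DUSP5 and the upper end for FOSL1 came from leaving out a siPGC1alpha array. In such fits the lone siPGC1alpha array that remains is assumed to vary like the controls. The other ends came from leaving out a control array. The sign was kept throughout by DUSP4 (-0.14 to -0.061), SPRY2 (0.044 to 0.092), SPRY4 (0.034 to 0.12), SPRED1 (-0.21 to -0.098), ETV4 (0.042 to 0.092) and PHLDA1 (-0.073 to -0.0016). The replicate block gave 0 calls in both fits, with 1 gene at an unadjusted p under 0.05 over 6 arrays and 1334 without replicate 1, where FOSL1 differed by -0.021. Without replicate 1, sicontrol 1 is alone in its block and adds nothing to the difference. The differences of the 10 genes there equal those with sicontrol 1 left out. Deviations of same-numbered samples from their group means correlated at -0.25, -0.18 and -0.086 across genes. The siPGC1alpha mean includes replicate 1, which shapes the deviations of all 3 siPGC1alpha arrays, so these values cannot show whether equal numbers pair samples. The main fits used no pairing.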
